A study of Homo sapiens with 4 samples.

Results

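The subtelomeres described here are the outermost 1 Mb of 39 autosome arms on the human assembly hg19, 17 at chromosome starts and 22 at chromosome ends. The members are the H3K9me3 peaks that overlap these zones by at least 1 bp. The starts of chromosomes 13, 14, 15, 21 and 22 were left out, because these chromosomes are acrocentric. The zones held 3418 of the 326823 peaks of one deposited list and 2647 of the 265052 peaks of the other, 1.05% and 0.999% of them. An arm is named by its chromosome and by p for the chromosome start or q for the chromosome end, so that 4p is the zone at the start of chromosome 4.

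The samples were U2OS cells, an established human osteosarcoma line, all labelled U2OS-KRAB-IDR3-TCF3, a name that the labels do not explain. There were 2 input samples and 2 samples from an H3K9me3 immunoprecipitation after formaldehyde cross-linking. Both input samples point to list 1 and both antibody samples to list 2, while peak names in either list carry IP, so the lists were given to no sample and were not compared as input against antibody. The series title concerns how the local density of H3K9me3 bears on genomic contacts held by HP1a condensates, and the density of peaks along each arm is the quantity given here. A peak list has no read counts and no replicates within it, so depth is unknown here, and shares are given without replicate error and without a test.

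H3K9me3 is trimethylation of lysine on the tail of histone H3 and a mark of constitutive heterochromatin. HP1 proteins bind it and are known for compacting the chromatin that carries it. Telomeres are repeat arrays that cap the chromosomes, and subtelomeres lie next to them and hold sequence blocks and gene families that are shared between chromosomes. U2OS cells maintain their telomeres without telomerase, by the recombination-based pathway called alternative lengthening of telomeres.

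Subtelomeres carried less peak cover than the sequence next to them in most arms, but they ranged from almost bare to more than 60% covered. The covered share is the percentage of base pairs that lie inside a peak. Summed over the 39 arms it was 36.3% in list 1 and 22.9% in list 2, against 47.7% and 30.05% from 1 to 5 Mb from the same ends. The ratio of these shares was 0.762 in list 1 and 0.762 in list 2. With stretches of 50 kb or more that were free of peaks in both lists taken out, the ratio was 0.889 in each list. Against 1 to 2 Mb from the same ends alone, it was 0.855 in list 1 and 0.909 in list 2. Over single arms the share ran from 2.12% to 67.4% in list 1 (median 36.1%) and from 1.21% to 55.5% in list 2 (median 21.4%). Every arm had a higher share in list 1, whose peaks start at a fold of 1.44 against 1.90. The lowest deposited −log10 p was 1.02 in list 1 and 1.58 in list 2. Peaks with a deposited −log10 q of at least 2 covered only 0.693% and 0.845% of the zones, so nearly all of this cover came from peaks below that limit.

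In each list 27 of 39 arms (69.2%) were covered less than their own stretch from 1 to 5 Mb. Further in on the same chromosomes, 49.6% of 2275 windows of 1 Mb in list 1 and 51.3% in list 2 were covered less than the next 4 Mb inwards. In both lists at once, 25 arms were covered less than their neighbouring stretch and 10 arms were covered more, namely 4p, 4q, 7q, 9p, 9q, 11q, 17p, 17q, 19p and 19q. Among 2658 windows of 1 Mb tiled over the autosomes, leaving out peak-free stretches of 1 Mb or more, 5.34% were covered over 60% in both lists and 1.32% were covered under 10% in both. Of the subtelomeres, 0 of 39 passed the upper limit and 2 of 39 lay under the lower limit, 1p and 10p.

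By distance from the end, cover was lowest at the tip, highest from about 300 to 600 kb, lower again up to 1 Mb and higher beyond 2 Mb. In list 1 the last 20 kb were covered 3.56% and the bin from 20 to 100 kb 17.7%. The share was 31.3% from 100 to 200 kb, 40.4% from 200 to 300 kb, 45.0% from 300 to 400 kb and 44.8% in each of the next bins up to 600 kb. From 600 kb to 1 Mb the shares of list 1 lay between 34.1% and 36.4%, and from 2 to 5 Mb between 48.7% and 49.97%. List 2 had a like outline, with 1.90% in the last 20 kb, 12.9% from 20 to 100 kb, 30.1% from 400 to 500 kb, 19.4% from 700 to 800 kb and 32.8% from 2 to 3 Mb.

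The low values from 20 to 100 kb, and in part those of the last 20 kb, went with long stretches without any peak. Stretches of 50 kb or more, free of peaks in both lists, occurred in 34 of the 39 zones and summed to 7.05 Mb, with 2p, 4p, 5p, 7q and 15q as the arms that had none. With these stretches taken out, cover from 20 to 100 kb was 43.8% for list 1 and 32.0% for list 2, against 39.4% and 21.9% from 900 kb to 1 Mb. The last 20 kb stayed the least covered bin, at 9.48% and 5.06%. The ratio of the outer bin (20 to 100 kb) to the inner bin (900 kb to 1 Mb) was 0.486 and 0.637 over all base pairs. Without the stretches it was 1.11 in list 1 and 1.46 in list 2. Taking them out can only raise cover, and most where they fill most of a bin. In arms such as 1p, 4q and 22q the whole bin from 20 to 100 kb was removed. The outer and inner bins then came from unlike sets of arms, so no direction is drawn from this ratio. The part of missing assembly sequence or unplaceable reads in these stretches or in the last 20 kb was not tested. No hg19 sequence was used.

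Against 600 kb to 1 Mb, the higher cover from 300 to 600 kb kept its direction without the stretches. Its ratio to the cover from 600 kb to 1 Mb was 1.26 in list 1 and 1.43 in list 2, and 1.27 and 1.44 without the stretches. Without 8q and 19q, the arms with the most heavily covered bins there, the ratio was 1.21 and 1.33. Taking the median over arms in each window in place of the sum, it was 1.11 and 1.26. These windows were chosen after the profile had been seen. Against the bins further out, little of the difference was left without the stretches, whose removal raised the outer bins most. In list 1 the bins from 20 to 300 kb were then covered 43.8% to 48.3%, and those from 300 to 600 kb 48.6% to 52.1%. In list 2 the values were 32.0% to 32.2% and 31.2% to 33.8%.

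**Figure D1:**
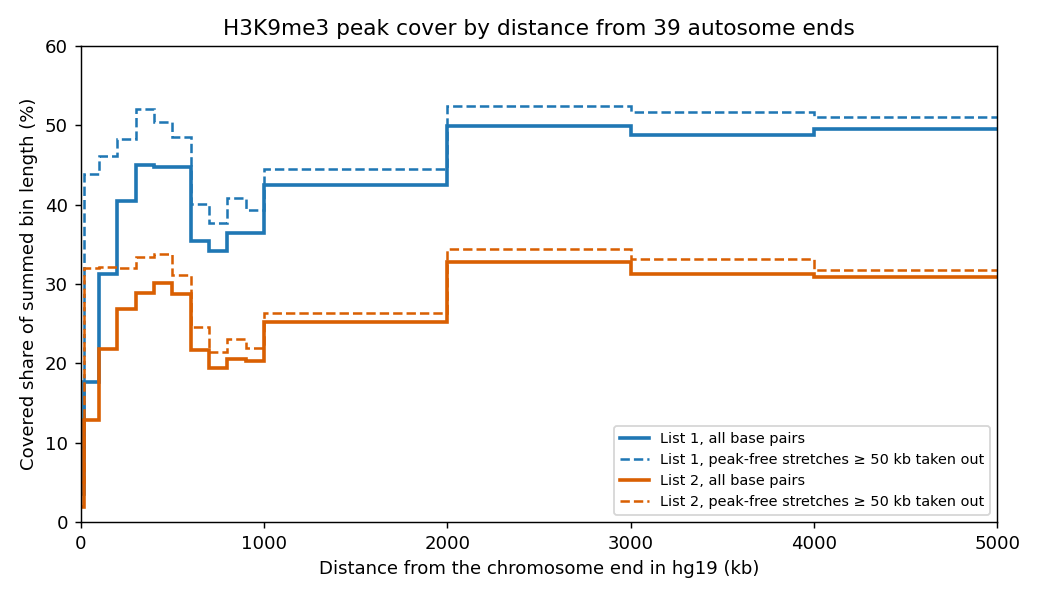
Covered share (%) of the summed bin length over 39 arms against distance from the chromosome end (kb), for both lists, over all base pairs (solid) or leaving out peak-free stretches of 50 kb or more (dashed). The solid lines start at 3.56% and 1.90% in the last 20 kb, and the dashed lines stand at 43.8% and 32.0% from 20 to 100 kb.

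The last 20 kb held few peaks. A peak lay there in 8 arms in list 1 and in 5 arms in list 2, and the 5 arms 5p, 5q, 7q, 12q and 17p had one in both lists. In list 1 alone, single narrow peaks lay there at 1q (308 bp wide, fold 2.41), 18p (317 bp, fold 1.60) and 19q (583 bp, fold 1.68). The fold is the enrichment over the peak caller's background as the authors deposited it, here and for the other peaks named. In the other 31 arms of list 1 and 34 arms of list 2 the last 20 kb were without a peak. The peak nearest to the end lay at a median distance of 62.0 kb in list 1 and 84.6 kb in list 2, and at most 724 kb and 722 kb, on 1p.

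The arm 5p had the highest fold of any subtelomeric peak, in its outermost peak. It lay at chr5:10012-11780 in list 1 with a fold of 32.3, and at chr5:10010-11774 in list 2 with a fold of 29.2. These peaks were under 2 kb wide and covered 8.85% and 8.83% of the last 20 kb. Gaps and repeats were not corrected, and whether they bear on these folds was not tested. Over its whole zone 5p was covered 30.01% in list 1 and 18.6% in list 2. It lay next to one of the most heavily covered stretches, since the following 1 to 5 Mb were covered 82.9% and 69.8%, the highest of all arms. The ratio of the zone to that stretch, 0.362 in list 1 and 0.266 in list 2, was among the 5 lowest by the higher value of the lists.

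At 12q the outermost peak was narrow and the bins from 20 to 200 kb were dense. It lay at chr12:133841516-133841886 in list 1 (371 bp, fold 6.35) and at chr12:133841511-133841889 in list 2 (379 bp, fold 7.53), 10.0 kb from the end of the assembly in both. From 20 to 100 kb from the end, 12q was covered 84.3% and 87.5%, and from 100 to 200 kb 68.0% and 69.4%. A peak of 91.1 kb in list 2, chr12:133682538-133773620, made up much of the bin from 100 to 200 kb. A peak-free stretch of 179.9 kb lay next to it, chr12:133502516-133682457, and from 400 to 500 kb cover was 59.95% and 48.6%. Over the whole zone 12q was covered 44.5% and 32.6%, 0.624 and 0.594 times its own 1 to 5 Mb.

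In the other arms with a peak in the last 20 kb in both lists the folds were under 3. No arm other than 17p had a peak closer than 10.0 kb to its end in either list. Whether the outermost 10 kb of those arms hold sequence in the assembly was not tested. On 17p peaks began 1.43 kb from the end in list 1 and 4.54 kb in list 2, with folds of 1.83 and 2.198. They and their neighbours covered 70.1% and 25.8% of the last 20 kb, but the whole zone of 17p was covered only 20.7% and 9.59%, which was still 1.09 and 1.19 times its own 1 to 5 Mb. On 7q a peak of 22662 bp in list 1 (fold 2.13) and one of 14044 bp in list 2 (fold 2.96) ended 14.1 kb and 13.98 kb from the end. On 5q the outermost peaks were 871 and 723 bp wide, with folds of 2.60 and 2.36. The next 209 kb of 5q inwards held no peak, and its zone was covered 36.0% and 21.9%.

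**Figure D2:**
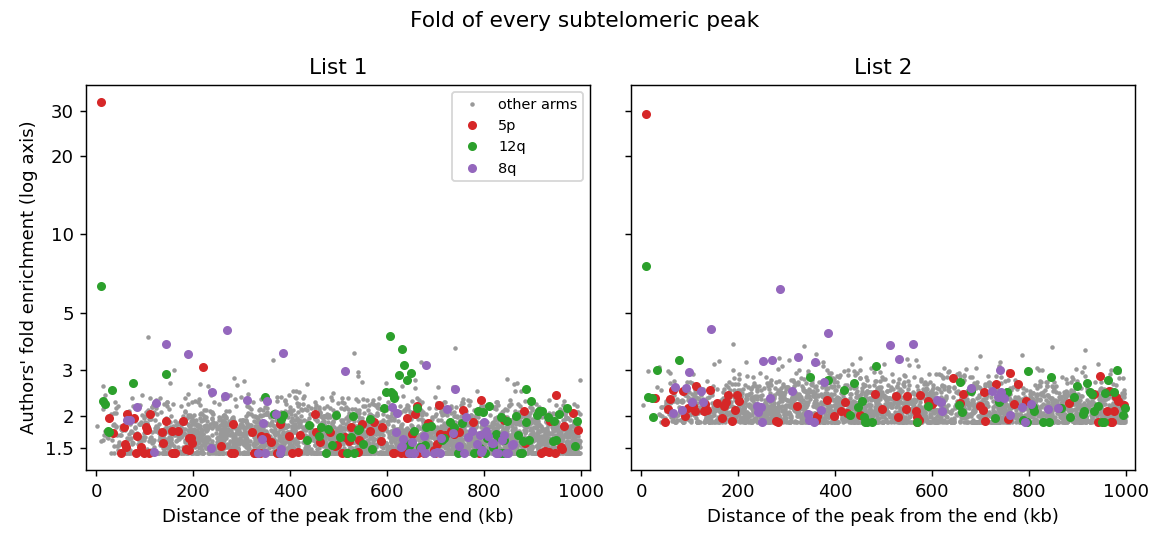
Fold enrichment (log axis) of every subtelomeric peak against its distance from the chromosome end (kb), with 5p, 12q and 8q coloured and the other arms in grey. The outermost peak of 5p stands alone at 32.3 in list 1 and 29.2 in list 2, followed by the outermost peak of 12q at 6.35 and 7.53.

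Apart from these tips, 8q held more peaks of high enrichment than any other arm, and most of their summed width. With −log10 q at 2 or above there were 11 subtelomeric peaks (0.322%) in list 1 and 14 (0.529%) in list 2, against 0.0429% and 0.258% of all autosome peaks. The arm 8q held 4 of the 11 and 6 of the 14. By width its part was larger, as its peaks made up 256 of the 270.3 kb of these peaks in list 1 and 300.4 of the 329.7 kb in list 2. The share of the zones covered by such peaks was 0.693% in list 1 and 0.845% in list 2, or 9.57 and 2.07 times that from 1 to 5 Mb. Without 8q it was 0.0368% and 0.0769%, or 0.705 and 0.319 times, so the direction turned on this arm. A fold of at least 3 was reached by 17 subtelomeric peaks (0.497%) in list 1 and 59 (2.23%) in list 2, against 0.107% and 1.17% of autosome peaks.

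The other peaks at that level were spread over arms. In list 1 they lay on 5p (1 peak), 11p (1), 12q (3), 18q (1) and 20q (1), and in list 2 on 5p, 6q, 7p, 7q, 11p, 12q, 13q and 21q with 1 each. After the outermost peaks of 5p and 12q, and leaving out 8q, the highest folds of list 1 were 4.06 at chr12:133243962-133245582, 4.01 at chr20:62917453-62918141, 3.65 at chr18:77331653-77336180, 3.61 at chr12:133218137-133221262 and 3.51 at chr11:532488-534374. In list 2 they were 3.78 at chr11:189320-189666, 3.73 at chr6:170776502-170777961 and 3.69 at chr13:114309556-114321953. Typical folds were the same as elsewhere, with a median of 1.65 in the zones and 1.65 over the autosomes in list 1, and 2.16 and 2.12 in list 2.

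The 5 arms with the most cover, by the lower value of the lists, were 19q, 4p, 7q, 8q and 11q. The zone of 19q was covered 62.9% in list 1 and 55.5% in list 2, above 75.7% and 93.0% of autosome windows of 1 Mb. It held few peaks, 61 and 60, with a mean width of 10573 bp and 9325 bp. Its outer 200 kb were sparse, at 21.4% and 7.90% from 100 to 200 kb, and its dense bins lay from 300 to 700 kb, with 96.3% and 95.5% from 400 to 500 kb, and again from 900 kb to 1 Mb, with 92.7% and 84.2%. Peaks of 72.2 kb (chr19:58667051-58739242) and 47153 bp (chr19:58610636-58657788) in list 2 were among its 5 widest subtelomeric peaks.

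The zone of 8q was covered 52.9% in list 1 and 43.0% in list 2, most of it from 100 to 600 kb from the end. The bin from 400 to 500 kb, chr8:145864023-145964022, was covered 100% in both lists, and the next bin inwards 98.3% and 94.8%. It lies inside a peak of 126 kb in each list, chr8:145851920-145977947 with a fold of 3.49 in list 1 and chr8:145851895-145977839 with a fold of 4.15 in list 2. These were the widest subtelomeric peaks of both lists. Closer to the end lay peaks with folds of 4.30 (list 1, chr8:146053364-146093909) and 6.16 (list 2, chr8:146053097-146077752), and then a peak of 91172 bp with a fold of 4.34 in list 2. Inwards of 600 kb cover dropped to 25.4% and 8.17%, and the bin from 900 kb to 1 Mb held no peak in either list. On GRCh38, genes near the end of 8q include C8orf33, ZNF16, ZNF250, ZNF7 and RPL8. They were not placed on hg19 positions here.

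The zone of 4p was covered 67.4% and 52.3%, the highest of all arms in list 1. Cover was high in each bin from 20 to 700 kb from the end, between 75.5% and 91.6% in list 1 and between 49.0% and 79.7% in list 2. In list 1 it began with a peak of 86.0 kb, chr4:38227-124199, with a fold of 2.26. The following 1 to 5 Mb were sparse, at 24.0% and 11.7%, and the ratio of 2.81 in list 1 and 4.47 in list 2 was the highest of all arms. The outermost genes of 4p on GRCh38 include the zinc finger genes ZNF595, ZNF718 and ZNF141.

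On 7q cover was highest near the tip. The zone was covered 62.4% and 48.9%, with 86.0% and 77.9% from 20 to 100 kb, 88.5% and 88.2% from 100 to 200 kb and 91.7% and 75.8% from 200 to 300 kb. From 600 to 700 kb only 14.4% and 3.13% were covered, and from 800 to 900 kb again 91.1% and 71.3%. A peak of 78.3 kb in list 1, chr7:158712129-158790417, was among its 5 widest. The zone of 11q was covered 59.4% and 37.9%, by 93 peaks in list 1 and 121 in list 2. Its most heavily covered bin in both lists lay from 200 to 300 kb, at 87.2% and 58.5%.

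**Figure D3:**
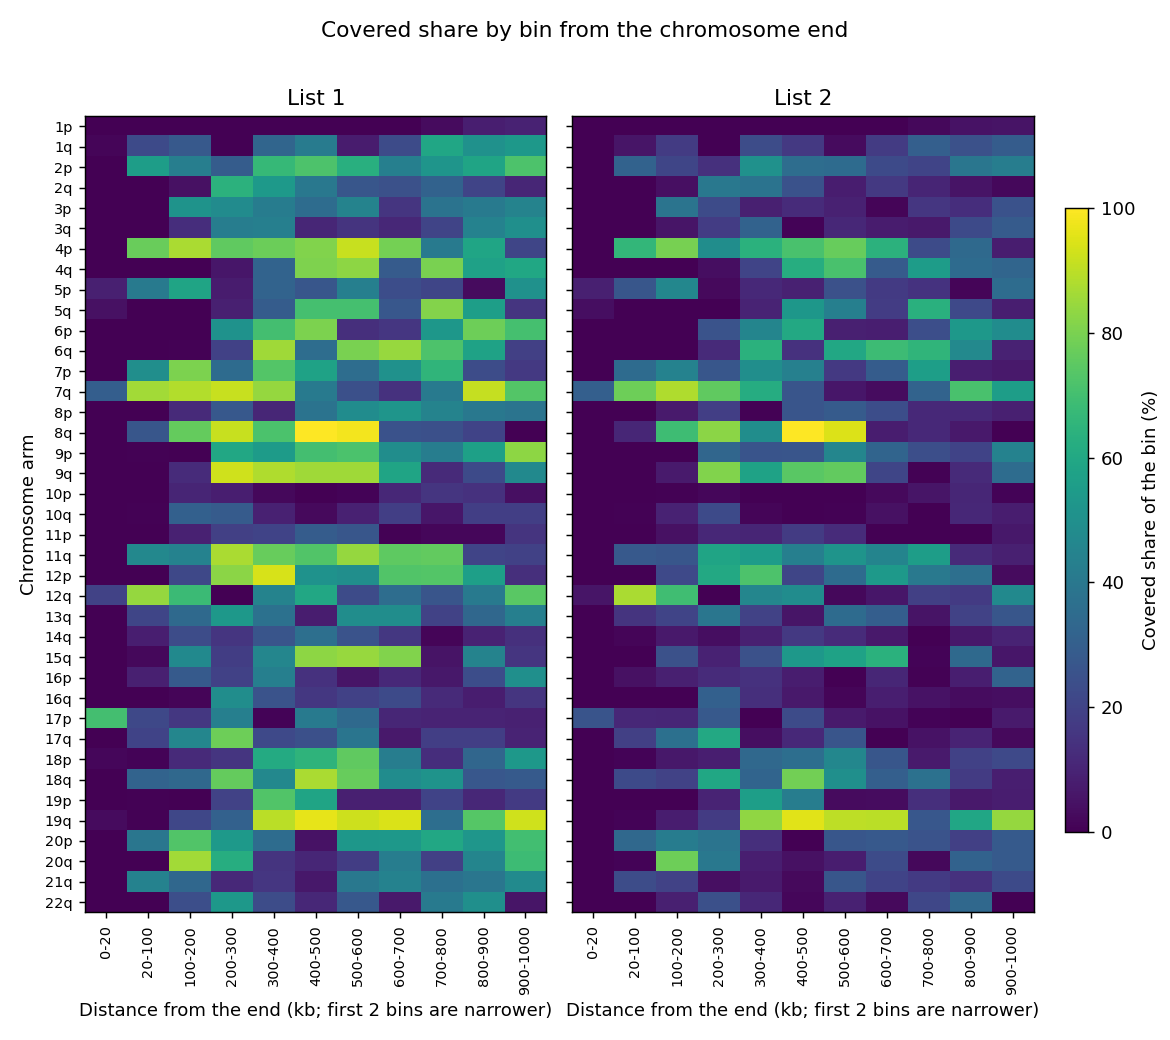
Covered share (%) of each bin from the chromosome end (columns, kb) in each of 39 arms (rows), for list 1 and list 2, from dark (0%) to yellow (100%). Bright blocks include 4p from 20 to 700 kb, 7q from 20 to 400 kb, 8q from 100 to 600 kb, 6q from 500 to 800 kb, 9q from 200 to 600 kb and 19q from 300 to 700 kb and from 900 kb to 1 Mb, and 1p is dark up to 700 kb.

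The 5 arms with the least cover, by the lower value of the lists, were 1p, 10p, 10q, 11p and 14q. In list 1 alone 16q, at 16.97%, lay below 14q. On 1p the first peak of either list began 722 kb from the end, and its cover was 2.12% in list 1 and 1.21% in list 2, by 14 and 8 peaks. From 800 kb to 1 Mb, where peaks were present, the bins of 1p were still covered only 8.46% to 9.67% in list 1 and 4.70% to 5.38% in list 2. The following 1 to 5 Mb of 1p were covered 35.0% and 20.8%, which gave the lowest ratio of all arms, 0.0606 and 0.0581.

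Cover on 10p was 6.67% and 2.22%, with a longest peak-free stretch of 188 kb, chr10:339017-526541. Its ratio to the next 4 Mb was 0.223 and 0.196. The other end of chromosome 10 was sparse as well, at 14.3% and 5.75%. The last 98.8 kb of 10q held no peak in either list, and from 400 to 500 kb the lists covered 2.42% and 0%. On 11p the zone was covered 12.3% and 6.23% and the bin from 600 to 700 kb 0.431% and 0%. The zone of 14q was covered 17.5% and 7.21%, which was 0.880 and 0.798 times its own sparse 1 to 5 Mb (19.8% and 9.04%).

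Arms 4q and 10q end in related repeat blocks, known from the DUX4 gene and facioscapulohumeral muscular dystrophy. The last 263 kb of 4q and the last 98.8 kb of 10q held no peak in either list, but bare tips were common. A peak lay within 50 kb of the end in only 15 of 39 arms in list 1 and 10 in list 2. Within 100 kb it was 25 and 22 arms. Other arms with long bare tips in both lists include 6p (202 kb) and 6q (198 kb). The zones differed further in. There, 4q was covered 80.5% and 62.4% from 400 to 500 kb and 83.0% and 71.3% from 500 to 600 kb. In the latter bin 10q had 9.17% and 0.595%. The whole zone of 4q was covered 42.7% and 30.9%, or 1.02 and 1.75 times its own 1 to 5 Mb.

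**Figure D4:**
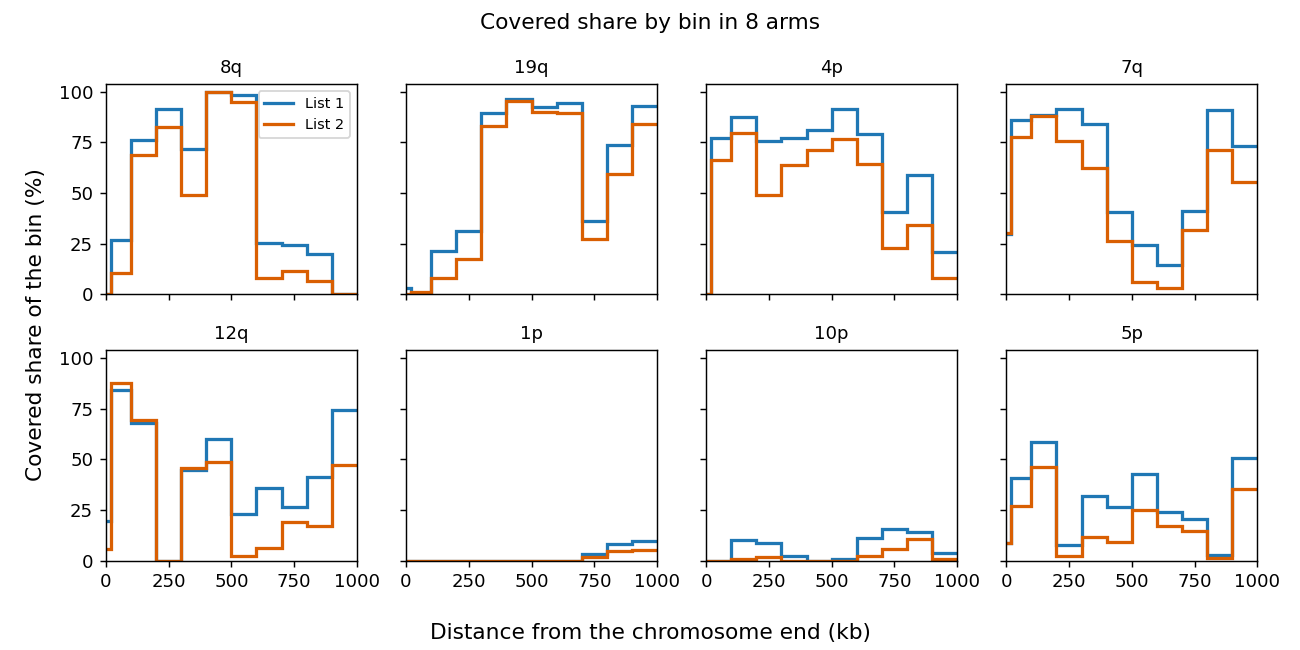
Covered share (%) of each bin against distance from the chromosome end (kb) in 8 arms, list 1 in blue and list 2 in orange. Both lists follow the same outline in each arm, with 100% from 400 to 500 kb on 8q and 0% up to 700 kb on 1p.

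Relative to their own next 4 Mb, the arms 4p, 9q, 19p, 19q and 9p stood highest by the lower ratio of the lists. In list 2 alone 4q (1.75) and 17q (1.63) lay above 19q, and 11q (1.33) and 7q (1.31) above 9p. The zone of 9q had a cover of 50.5% in list 1 and 36.6% in list 2, 2.199 and 3.45 times its 1 to 5 Mb. This cover lay from 200 to 600 kb, between 85.8% and 92.7% in list 1, and a peak of 96.3 kb there, chr9:140923073-141019373, was the second widest subtelomeric peak of list 1. On 9p the zone was covered 48.9% and 25.2%, or 1.13 and 1.30 times. The zone of 19p was covered only 21.8% and 14.3%, but its 1 to 5 Mb were the least covered of all arms (15.9% and 6.98%), which gave ratios of 1.36 and 2.05. For 19q the ratios were 1.22 and 1.498.

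The 5 lowest ratios, by the higher value of the lists, belonged to 1p, 10p, 22q, 11p and 5p. In list 2 alone 16q, at 0.311, lay below 11p. The zone of 22q was covered 24.3% and 11.3%, 0.343 and 0.199 times its 1 to 5 Mb, and its last peaks lay 115 kb and 127 kb from the end. On 11p the ratios were 0.353 and 0.329.

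The remaining arms lay between these. Over 40% in list 1 were 2p (54.4%, and 30.6% in list 2), 12p (51.5% and 34.4%), 18q (50.2% and 35.1%), 20p (48.7% and 24.9%), 7p (47.7% and 30.9%), 6q (45.5% and 34.1%), 6p (43.2% and 27.4%) and 15q (42.7% and 27.5%). The densest bins of 15q lay from 400 to 700 kb, and those of 12p from 200 to 400 kb. Between 30% and 40% in list 1 were 18p (37.2% and 20.7%), 20q (36.8% and 22.5%), 3p (36.1% and 14.7%), 13q (34.4% and 21.4%), 1q (31.4% and 16.6%), 8p (31.2% and 13.7%) and 21q (31.1% and 15.3%). Under 30% were 17q (27.9% and 17.2%), 2q (27.7% and 14.96%), 3q (25.03% and 13.3%), 16p (20.9% and 9.89%) and 16q (16.97% and 7.23%). Of these arms 17q was covered more than its own 1 to 5 Mb in both lists (1.13 and 1.63 times), whereas 6p, 20p and 21q, and 8q above, lay on different sides of 1 in the lists.

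**Figure D5:**
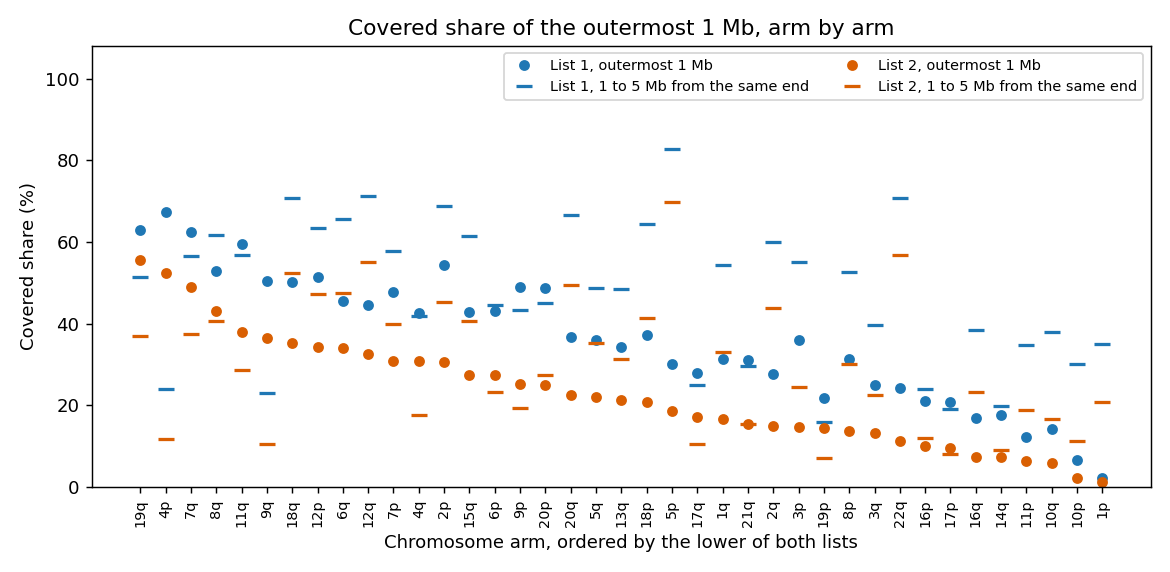
Covered share (%) of the outermost 1 Mb (points) and of the stretch from 1 to 5 Mb from the same end (dashes) in each of 39 arms, for both lists, with arms ordered by the lower of their values. The points run from 62.9% and 55.5% on 19q to 2.12% and 1.21% on 1p, and in each list 27 points lie below their own dash.

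Dense bins were about as frequent as elsewhere and sparse bins more frequent. Of the 390 bins outside the last 20 kb, 39 (10%) were covered over 60% in both lists, against 10.2% of 26869 autosome bins of 100 kb. Under 10% in both lists were 79 bins (20.3%), against 6.77%. Of these, 24 lay from 20 to 100 kb from the end. With bins that held no peak in either list left out of both sets, 51 of 362 (14.1%) remained, against 5.52%. The dense bins lay on 4p (6), 7q and 19q (5 each), 6q and 8q (4 each), 9q (3), and 4q, 12p and 12q (2 each), with 1 each on 5q, 6p, 15q, 17q, 18q and 20q, and on no other arm. Of the 10 densest bins by the lower of the lists, 5 lay on 19q, 3 on 8q and 1 each on 7q and 12q.

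Chromosome starts were covered a little less than chromosome ends. The share over the 17 starts was 34.2% in list 1 and 19.8% in list 2, and over the 22 ends 38.0% and 25.3%. The stretches from 1 to 5 Mb had the same order, 44.7% and 26.9% at starts and 49.97% and 32.5% at ends. Of the 17 chromosomes with both zones, 6 were covered more at the start than at the end, the same number in each list, and all 17 had the same order in both lists. The shares of the start and the end of a chromosome had a Spearman correlation of 0.201 in list 1 and 0.289 in list 2 over 17 chromosomes. The zone and its own 1 to 5 Mb had a Spearman correlation of 0.433 and 0.410 over 39 arms.

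Arms with more cover had wider peaks. Over the 39 arms, the Spearman correlation of the covered share with the mean peak width was 0.921 in list 1 and 0.850 in list 2, and with the number of peaks 0.152 and 0.589. The arm 3p held the most peaks of list 1, 162, with a mean width of 2227 bp and 36.1% cover, whereas 8q reached 52.9% with 65 peaks of 8143 bp. Width and number enter the covered share by construction, and the arms share libraries and an uncorrected DNA copy number, so these values describe the lists only.

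Both lists ranked the arms almost alike. The Spearman correlation of the covered shares between the lists was 0.964 over 39 arms (Pearson's r 0.955) and 0.965 over the 390 bins, against 0.952 over all autosome bins of 100 kb. Inside the zones 90.1% of the peaks of list 2 (2386 of 2647, with 88.9 to 91.2% as the 95% Wilson interval) overlapped list 1 by 1 bp or more, against 90.5% of those of all autosomes. The share for list 1 was 50.8% (1736 of 3418, 49.1 to 52.5%), against 51.9%. Only counting error enters these intervals. In base pairs the lists had 7.98 Mb in common, 56.3% of what list 1 covered and 89.3% for list 2, which gave a Jaccard index of 0.528 against 0.470 for the autosomes.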

How the data were processed

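The values came from 2 broad peak lists without headers. The submitters' processing notes name MACS2 2.2.7.1, Bowtie2 2.5.0, Trim Galore 0.6.7, bcl2fastq 2.17 and the build hg19, without saying what each did. The peak cutoff, control, duplicate handling and pooling were not given in the sources used here. As deposited, the fold enrichment is a ratio over the peak caller's background. The p-values and q-values, as −log10, were likewise deposited by the authors. The deposited score column was not used. Peak lists hold no depth per sample.

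Chromosome lengths were the standard hg19 ones, entered by hand, and no peak ran past them. Peaks of a list did not overlap each other. Covered base pairs were counted per arm in the last 20 kb, from 20 to 100 kb and in bins of 100 kb up to 1 Mb, with 1 to 5 Mb from the same end as reference. Coordinates are 1-based. No test across arms was made, as arms are not replicates. The arms and peaks named were set by rank, a rule written with earlier results of these data known, as were the zones and comparisons. Gene names come from RefSeq tables on GRCh38.p14 and give neighbour order only. No hg19 sequence was used, so none is printed. Interval counting was tested on 20 simulated sets of peaks. Scripts ran in Python 3.11.15 with scipy 1.17.1, pandas 2.3.3 and numpy 2.4.6, and figures in matplotlib 3.10.9.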

Additional observations from a re-analysis of the deposited data

How the results depend on the processing

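The lists have no replicates, the depth is unknown, and gaps, repeats and DNA copy number were not corrected. No paired analysis was possible because each list was given to no sample. A value counted as moved when it changed by over 1.5 times (rank correlations by 0.1 or more, overlaps by leaving their interval). The ratio of the zones to 1 to 5 Mb stayed under 1 in both lists under each alternative except −log10 q of at least 2 with all arms. With each arm left out in turn, an alternative added after seeing the data, it spanned 0.735 to 0.781 for list 1 and 0.725 to 0.794 for list 2, the zone share from 35.5% to 37.3% and from 22.1% to 23.5%, the ratio of the bin from 20 to 100 kb to that from 900 kb to 1 Mb from 0.438 to 0.520 and from 0.559 to 0.712, and the ratio of 300 to 600 kb to 600 kb to 1 Mb from 1.21 to 1.29 and from 1.34 to 1.46.

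At a −log10 q of 2 or above, the ratio was 9.57 for list 1 and 2.07 for list 2, with zone shares of 0.693% and 0.845%. Such peaks lay in the zones of only 6 arms in list 1 and 9 arms in list 2. At most these arms could be covered more than their own 1 to 5 Mb, whereas 7 and 13 arms were covered less. Arms with no such peak in either stretch are ties, so these counts do not show a turned direction over arms. The last 20 kb were then covered 0.274% and 0.275%, with a peak in 2 arms in each list, the rank correlation between the lists was 0.429, 1 bin was dense and 384 were sparse, and 35.7% of list 2 peaks had an overlap in list 1. The bin from 20 to 100 kb held no such peak in list 2 (ratio 0), and no ratio could be formed in list 1. Without 8q, added after seeing the data, the share was 0.0368% and 0.0769% and the ratio 0.705 and 0.319, so that 1 arm decided it.

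With peaks above the median fold, 131 bins were sparse and 83.8% of list 2 peaks had an overlap in list 1. With list 1 cut at the smallest −log10 p found in list 2, its zone share was 18.3%, its ratio of the outer to the inner bin 0.806, its last 20 kb 1.64% with 5 arms, and 150 bins were sparse. The ratio of the outer to the inner bin was 1.11 and 1.46 without peak-free stretches of at least 50 kb, 0.0236 and 0.104 by medians over arms, and 0.194 and 0.298 with bins of 50 kb, which gave 90 dense and 196 sparse bins. Base pairs in both lists covered 20.5% of the zones. The last 50 kb were covered 5.90% with 15 arms in list 1 and 4.46% with 10 in list 2. With the outermost 10 kb left out, the rest of the last 20 kb was covered 4.91% with 8 arms in list 1 and 2.47% with 4 in list 2. With a reciprocal overlap of 50%, 24.7% of list 2 peaks had an overlap in list 1. Without bins that held no peak, added after seeing the data, 51 were sparse.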

Other observations

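Zinc finger gene symbols were frequent near the ends of some well covered arms. The symbols (names starting with ZNF, ZSCAN, ZKSCAN or ZFP) were counted among the outermost 20 protein-coding genes of each arm on GRCh38, as far as the RefSeq tables list them, after the covered shares had been seen. These genes reach past 1 Mb on gene-poor arms, and none was placed on an hg19 position. At least 3 such symbols were found on 5 arms, with 12 on 19q, 7 on 12q, 6 on 8q and 3 each on 4p and 18q. Examples are ZNF8, ZNF274 and ZNF329 on 19q and ZNF10, ZNF84 and ZNF268 on 12q. On 18q the symbols were ZNF236, ZNF516 and ZNF407, which come after SALL3, GALR1 and MBP in order from the end. Whether any of those on 18q lies inside its zone was not tested. Zinc finger gene clusters are known for H3K9me3 over their gene bodies. The covered share of these 5 arms ran from 44.5% to 67.4% in list 1 (median 52.9%) and from 32.6% to 55.5% in list 2 (median 43.0%). In the other 34 arms it ran from 2.12% to 62.4% (median 32.9%) and from 1.21% to 48.9% (median 17.9%), so the groups overlap. The 28 arms with 0 such symbols had medians of 35.2% and 19.7%, above those of all 34, so cover did not go up step by step with the number of symbols. The limit of 3 symbols was set after the shares had been seen. The arms 7q and 11q were among the 5 best covered with 0 such symbols.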
